A study of Rattus with 6 samples.

Results

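The transcripts described are the mitochondrially encoded mRNAs of respiratory complexes III, IV and V, namely CYTB, COX1, COX2, COX3, ATP6 and ATP8, and the mitochondrial ribosomal RNAs mt-Rnr1 and mt-Rnr2. They were chosen as the genes on chromosome MT that carry 1 of these 8 symbols in the count table, which gave 8 of its 21378 genes and 8 of the 37 genes on that chromosome. All 8 passed the filter on low counts, as did 14412 genes in all. The other mitochondrial genes were 7 mRNAs of complex I and 22 transfer RNAs.

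The data are poly(A)-selected, stranded mRNA libraries of rat cardiac fibroblasts, connective-tissue cells that lay down matrix, described in the labels as a purchased cell line from cardiac muscle. In 3 libraries (siNONO) the cells had been lipofected with an siRNA against Nono, which encodes a nuclear RNA- and DNA-binding protein. The other 3 (siCtrl) are titled as siRNA controls, while another label speaks of an empty vector, so what the control cells received is not settled here. The labels state a harvest at 48 h for RT-qPCR and western blotting, name no time for the sequenced RNA, and do not tell whether replicates were separate cultures. The p-values therefore measure only the spread between these libraries, which may be technical. Strain, age and sex of the source animals were not given in the sources used here.

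The mitochondrial genome is a small circle copied into long transcripts that carry many genes. Transfer RNAs between most of the genes are cut out, which frees the mRNAs and rRNAs, and the mRNAs then receive short poly(A) tails. Both rRNAs lie near the start of the heavy-strand transcript, and their tails are shorter than those of the mRNAs. CYTB is the cytochrome b of complex III, which passes electrons from ubiquinol to cytochrome c. COX1, COX2 and COX3 form the core of complex IV, cytochrome c oxidase, which reduces oxygen. ATP6 and ATP8 are membrane subunits of ATP synthase, complex V, and are made from overlapping reading frames on a shared mRNA. For short, each protein-coding gene, the 6 here and the 7 of complex I, is called an mRNA, although some share theirs, as ATP6 and ATP8 do. The mt-Rnr1 RNA belongs to the small and mt-Rnr2 to the large subunit of the mitochondrial ribosome.

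Where 3 values are given for a group, they stand in the order of replicates 1, 2 and 3. Library totals ran from 27792357 to 33365588 counts. Nono was at 233 to 247 CPM (counts scaled to library size with TMM factors) in siCtrl and at 69.9 to 76.1 CPM in siNONO, or 30.7% of control. Of the genes tested, edgeR's quasi-likelihood test at a Benjamini-Hochberg adjusted p threshold of 0.05 called 32.1% in either direction, 50.5% of them raised (65.5% with scaling by library totals alone). Collagens and other fibroblast markers were abundant, at 33200 to 36500 CPM in sum (9 genes, 0 raised and 4 lowered by edgeR; 0 and 5 at an unadjusted p under 0.05, 0 and 5 with DESeq2, 0 and 4 with limma-voom). Of 7 matched cardiomyocyte markers, Myh6, Actc1, Ryr2 and Ttn had 0 to 4 counts in each library, while Tnnt2, cardiac troponin T, had 3535 to 4997 counts and fell by 0.45 on the log2 scale (edgeR adjusted p = 1.29e-05). Pln had 46 to 79 counts (log2 fold change -0.35, edgeR adjusted p = 0.174) and Tnni3 5 to 17 (-0.49, 0.449), and neither was called. Leukocyte markers, present in all libraries, summed to 1290 to 1430 CPM in siCtrl and 1270 to 1340 CPM in siNONO (8 genes, 0 raised and 3 lowered by edgeR's test; 0 raised and 4 lowered at an unadjusted p under 0.05, and 0 and 3 with DESeq2 and with limma-voom). Endothelial markers summed to 22.5 to 25.9 and 23.2 to 25.7 CPM (5 of 6 genes tested and 0 called by edgeR, DESeq2 or limma-voom; 1 was lower at an unadjusted p under 0.05). Those of pericytes and smooth muscle summed to 76.0 to 84.5 and 68.1 to 72.3 CPM (5 of 6 genes tested, 1 raised and 3 lowered by edgeR). The shares lowered by edgeR were 44.4% for fibroblast, 37.5% for leukocyte and 60% for pericyte and smooth muscle markers, beside 15.9% of all genes tested. The shares raised were 0%, 0% and 20%, beside 16.2%. These shares of short lists were not tested. These marker sums were scaled by library totals alone, without TMM factors, unlike the edgeR calls beside them. The TMM factors were 0.967 to 0.994 in siCtrl and 1.01 to 1.02 in siNONO. With these factors, the sums would be higher in siCtrl and lower in siNONO. The part of other cells in the mitochondrial results was not tested.

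In control cells the mRNAs were among the most abundant transcripts of all. COX1 ranked first of the 14412 genes by CPM, and COX3, COX2, ATP6 and CYTB ranked 5, 8, 10 and 12. For levels that can be compared between genes, the authors' FPKM values, which are scaled to gene length and library, were used. The order in siCtrl was COX1, COX3, COX2, ATP6, ATP8, CYTB, mt-Rnr1 and mt-Rnr2, from a mean of 10222 FPKM for COX1 to 352 FPKM for mt-Rnr2. COX3 (8818 to 9245 FPKM) and COX2 (8863 to 9060 FPKM) did not differ beyond the spread of their libraries. All other neighbours in that order had ranges that did not overlap. ATP6 stood 1.36-fold above ATP8 although they share an mRNA. How reads over their overlap were counted is uncertain, so that step is not read as a difference between transcripts. The largest step was the one from mRNA to rRNA, where CYTB, at a mean of 4366 FPKM, stood 9.44-fold above mt-Rnr1, at 463 FPKM. The order in siNONO was the same, but COX2 (6822 to 7369 FPKM) now overlapped both COX3 (7165 to 7792 FPKM) and ATP6 (6537 to 7122 FPKM). COX1 had a mean of 9767 FPKM and reached 10097 FPKM in siNONO, which on this scale overlapped its siCtrl libraries, and the step from CYTB to mt-Rnr1 was 4.1-fold. The rRNA levels give only what passed poly(A) selection and are not the amounts of ribosomal RNA in the cells.

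**Figure D1:**
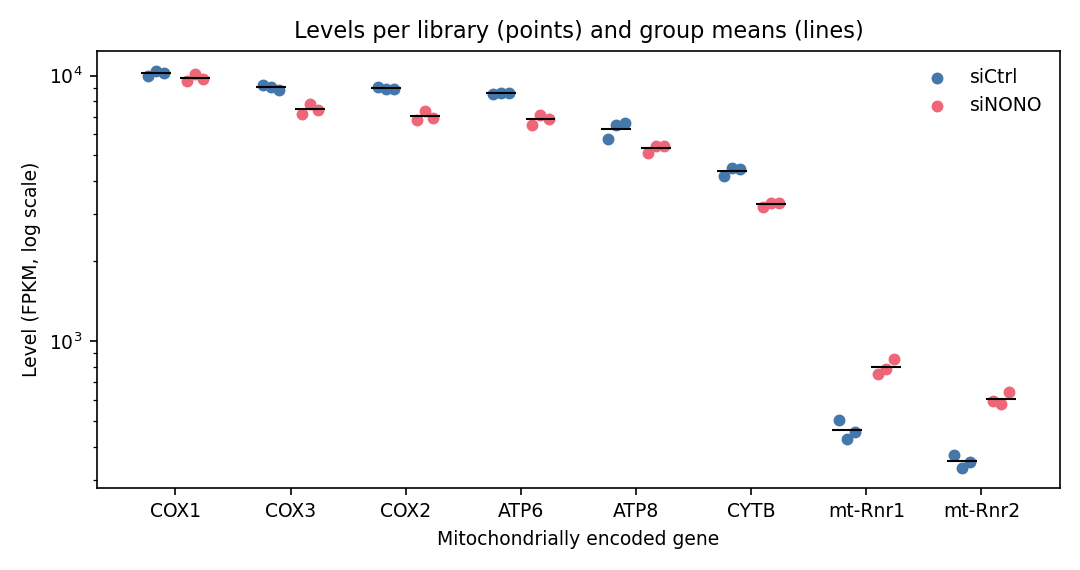
Level of each gene in FPKM on a log axis, for 3 siCtrl and 3 siNONO libraries (points) with group means (lines). COX1 lies close to its control level at means of 10222 and 9767 FPKM, the other mRNAs are lower and both rRNAs are higher in siNONO.

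Knockdown went with lower levels of 5 of the 6 mRNAs and higher levels of both rRNAs. CYTB, COX2, ATP6, COX3 and ATP8 were lowered to between 72.4% and 81.6% of control by edgeR's quasi-likelihood test, mt-Rnr1 and mt-Rnr2 were each raised to 166%, and COX1 did not pass. Over all genes tested, 15.9% were lowered and 16.2% raised. The median log2 fold change (siNONO minus siCtrl) of the 6 mRNAs was -0.35, beside 0.00 for all genes. CPM values of siCtrl and siNONO did not overlap for any of the 8 genes, and the same held for 45.0% of all genes tested. The 6 mRNAs were lower in this sense, as were 22.1% of all genes, and the 2 rRNAs higher, as were 22.9%. In bulk RNA, fewer mitochondrial genomes or cells and less RNA from each cannot be told apart.

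CYTB of complex III had the largest estimated fall among these mRNAs. Its level was 5448, 5679 and 5651 CPM across siCtrl and 3952, 4111 and 4090 CPM across siNONO. All siNONO libraries lay well below all controls, and the spread within each group was small (coefficient of variation 2.25% and 2.14%). The means of 5592 ± 126 and 4051 ± 86.7 CPM (SD, n = 3 each) put siNONO at a log2 difference of -0.47 ± 0.04 (SE; edgeR adjusted p = 2.02e-06). That is 72.4% of control, with a 95% confidence interval from 68.1% to 77.1%, which like the other intervals here is not adjusted for the number of genes. On the log2 scale it ran from -0.55 to -0.38. It overlapped the intervals of COX2 (-0.50 to -0.30), ATP6 (-0.47 to -0.28), COX3 (-0.43 to -0.23) and ATP8 (-0.40 to -0.19), but not COX1 (-0.21 to -0.02). The log2 ratio of CYTB to ATP6 counts was -0.28 to -0.19 in siCtrl and -0.36 to -0.28 in siNONO. The groups overlapped (exact two-sided permutation p = 0.2).

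The complex IV mRNAs had changes of different size, small for COX1 and larger for COX2 and COX3. COX1, the subunit that holds the oxygen-reducing heme and copper centre, was at 17590, 17864 and 17644 CPM across siCtrl and at 15894, 17018 and 16114 CPM across siNONO. The siNONO libraries were the lower ones without overlap, but replicate 2 came close to the controls. As a share of all counts, without TMM factors, siNONO replicate 2 (1.712%) lay above siCtrl replicate 1 (1.7%). The log2 fold change was -0.12 ± 0.04 (edgeR adjusted p = 0.0575), or 92.3% of control with a 95% confidence interval from 86.5% to 98.5%. Scaling by library totals alone gave -0.06 (edgeR adjusted p = 0.188). COX1 was called lowered without siCtrl replicate 1 (edgeR adjusted p = 0.0484), without siNONO replicate 2 (0.0211), with no filter (0.00939) and with the DESeq2 Wald test (0.0214), while over all alternatives its adjusted p ran from 0.00939 to 0.652.

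COX2, which takes up electrons from cytochrome c, had 7055, 6754 and 6768 CPM across siCtrl and 5031, 5499 and 5088 CPM across siNONO. Its log2 fold change was -0.40 ± 0.05 (edgeR adjusted p = 2.10e-05), or 75.9% of control. COX3, the remaining mitochondrial core subunit of the enzyme, had 8252, 7866 and 7717 CPM in siCtrl and 6057, 6664 and 6271 CPM in siNONO, in the same order of replicates. It fell by 0.33 ± 0.05 on the log2 scale (edgeR adjusted p = 1.42e-04), to 79.7% of control. For both genes siCtrl replicate 1 was the highest library and siNONO replicate 1 the lowest. COX3 lost its call on the log2(FPKM + 1) scale with limma (adjusted p = 0.0643; over all alternatives 6.15e-16 to 0.0643).

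Counts of both complex V genes, which share an mRNA, fell. ATP6, which forms part of the proton path, had 6626, 6460 and 6538 CPM across siCtrl and 4800, 5290 and 5030 CPM across siNONO. Its log2 fold change was -0.38 ± 0.05 (edgeR adjusted p = 2.89e-05), or 77.0% of control. ATP8, the small subunit encoded just upstream, had 1345, 1467 and 1511 CPM in siCtrl and 1128, 1209 and 1191 CPM in siNONO. Its siCtrl replicate 1 was the control nearest to the siNONO libraries, and its change was the smaller of the pair at -0.29 ± 0.05 (edgeR adjusted p = 4.89e-04), or 81.6% of control. ATP8 lost its call on the log2(FPKM + 1) scale with limma (adjusted p = 0.104; over all alternatives 4.74e-10 to 0.104). Because their reading frames overlap on a shared mRNA and the counting tool is not given in the sources used here, how reads over the overlap were split between them is uncertain. The log2 ratio of ATP8 to ATP6 counts was -2.30 to -2.11 in siCtrl and -2.13 to -2.08 in siNONO, so the groups overlapped (exact two-sided permutation p = 0.2).

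Both rRNAs rose, and their fold changes lay close together. The small-subunit rRNA mt-Rnr1 was at 552, 454 and 485 CPM across siCtrl and at 777, 822 and 883 CPM across siNONO. Its log2 fold change was 0.73 ± 0.07 (edgeR adjusted p = 1.87e-06), with a 95% confidence interval of the level from 151% to 183% of control. The large-subunit rRNA mt-Rnr2 was at 665, 579 and 616 CPM in siCtrl and at 1005, 995 and 1087 CPM in siNONO. Its log2 fold change was 0.73 ± 0.05 (edgeR adjusted p = 3.95e-07), from 153% to 180% of control. No siNONO library overlapped a control for either rRNA, and siCtrl replicate 1 was the highest control for both. The log2 ratio of mt-Rnr1 to mt-Rnr2 was -0.35 to -0.27 in siCtrl and -0.37 to -0.28 in siNONO, a difference of 0.01 (exact two-sided permutation p = 1.0).

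The relation of mRNAs to rRNAs was also compared within each library. Such a ratio needs no scaling between libraries, but it shows a relative shift and not the direction of either class. There were 38.0, 44.6 and 41.6 reads of the 6 mRNAs for each read of the rRNAs across siCtrl, and 20.7, 21.9 and 19.2 across siNONO. The rRNA to mRNA ratio was thus 2.01-fold higher in siNONO (log2 difference 1.01). The exact two-sided permutation p was 0.1, which 3 against 3 libraries cannot go below. The 6 mRNAs took 4.52% ± 0.0534 of the siCtrl counts and 3.88% ± 0.116 of those in siNONO, and the rRNAs 0.110% ± 0.00755 and 0.189% ± 0.0109 (SD, n = 3 each; exact permutation p = 0.1 for both).

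Ribosomal RNA of the cytosolic ribosome, encoded in the nucleus and likewise counted despite poly(A) selection, overlapped between the groups. The 29 nuclear-encoded rRNA genes, chosen after the data were seen, took 0.173%, 0.155% and 0.223% of counts across siCtrl and 0.109%, 0.0529% and 0.209% across siNONO (exact permutation p = 0.3). Most of these counts came from 1 gene, Rn45s. It took 0.159%, 0.143% and 0.205% across siCtrl and 0.1015%, 0.0498% and 0.194% across siNONO. The mitochondrial rRNAs took 0.118%, 0.103% and 0.109% across siCtrl and 0.182%, 0.183% and 0.202% across siNONO. In siNONO, replicate 3 was the highest library for both kinds of rRNA, while replicate 2 was the lowest for nuclear-encoded rRNA and close to replicate 1 for mitochondrial rRNA. Small nucleolar RNAs took 0.00481% of counts in siCtrl and 0.00503% in siNONO (289 genes; exact permutation p = 0.6). The length of the tails on the rRNAs, and so the share that poly(A) selection captured, was not tested.

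**Figure D2:**
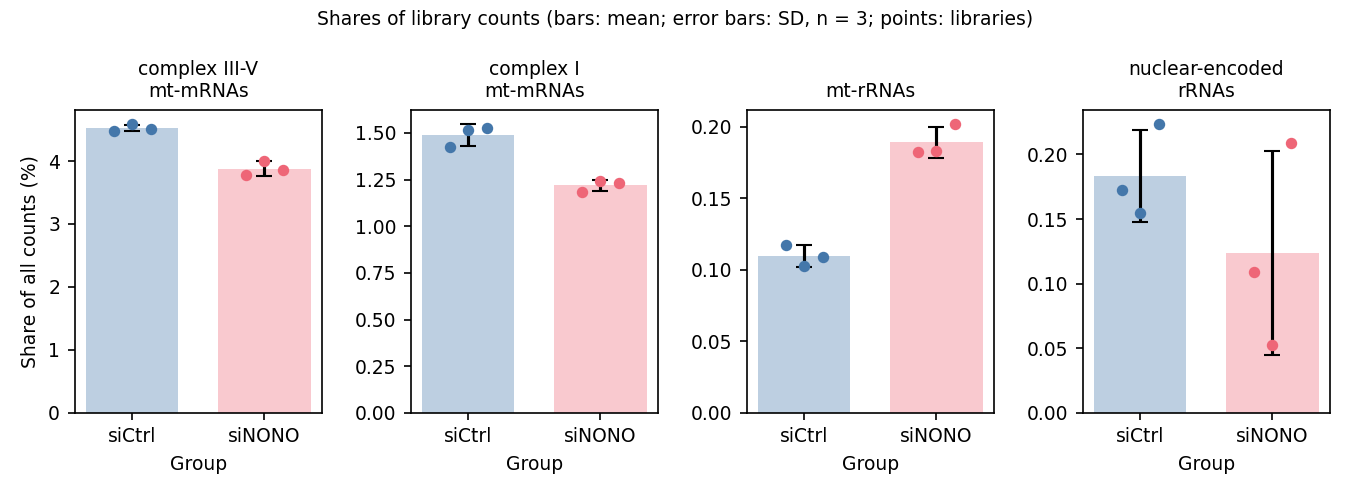
Share of all counts in percent, each panel with its own axis from 0, for the 6 mRNAs of complexes III to V, the 7 complex I mRNAs, the 2 mitochondrial rRNAs and the 29 nuclear-encoded rRNA genes. Mitochondrial mRNAs are lower and mitochondrial rRNAs higher in each siNONO library, while nuclear-encoded rRNA spans 0.0529% to 0.209% within siNONO. Most nuclear-encoded rRNA counts come from 1 gene, Rn45s.

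Against the 7 complex I mRNAs of the same genome, COX1 was relatively higher and CYTB relatively lower in each siNONO library, and the other 4 mRNAs overlapped between groups. All 7 complex I mRNAs were lowered by edgeR's test, where 15.9% of all genes tested were lowered. They ran from ND2 (-0.13) to ND4 (-0.51), with a median of -0.42. ND2 lost its call in 8 of the 18 alternatives, among them the fits without siCtrl replicate 3 (edgeR adjusted p = 0.105), siNONO replicate 1 (0.184) and siNONO replicate 3 (0.0655; over all alternatives up to 0.387). The log2 ratio of each gene's counts to the summed complex I counts was compared between groups for the 8 genes. For COX1 the ratio was 0.26, 0.23 and 0.19 across siCtrl and 0.46, 0.46 and 0.42 across siNONO, so that it was 1.17-fold higher without overlap. For CYTB it was -1.44, -1.43 and -1.46 in siCtrl and -1.55, -1.59 and -1.56 in siNONO, a difference of -0.13. Both rRNAs were higher, by 1.08 for mt-Rnr1 and 1.07 for mt-Rnr2. These 4 genes each had an exact two-sided permutation p of 0.1, which adjusted over the 8 ratios was 0.2. For COX2 (-0.06), COX3 (0.01), ATP6 (-0.04) and ATP8 (0.05) the groups overlapped, with p from 0.2 to 0.8 and adjusted p from 0.32 to 0.8. The smallest adjusted p that 8 such ratios can reach with 3 against 3 libraries is 0.1, so no difference could pass 0.05.

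**Figure D3:**
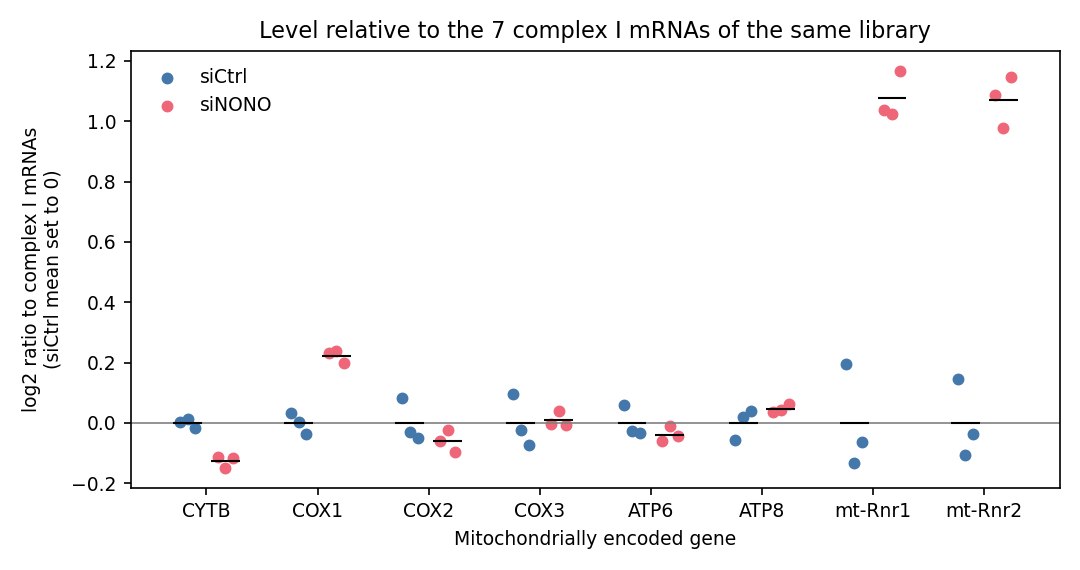
Log2 ratio of each gene's counts to the summed counts of the 7 complex I mRNAs in the same library, with the siCtrl mean of each gene set to 0. COX1 lies 0.22 and the rRNAs lie 1.07 to 1.08 above their controls, CYTB lies 0.13 below, and the other genes overlap between groups.

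Further ratios among the mRNAs, chosen after the values were seen, are given as descriptions. The log2 ratio of COX1 to the summed counts of the other 5 mRNAs was -0.71, -0.66 and -0.68 across siCtrl and -0.40, -0.42 and -0.43 across siNONO. COX1 was thus 1.2-fold higher relative to them, without overlap. The COX1 to COX2 ratio was 1.32 to 1.40 in siCtrl and 1.63 to 1.66 in siNONO on the log2 scale, again without overlap. The COX2 to COX3 ratio shifted by less, at -0.23 to -0.19 in siCtrl and -0.30 to -0.27 in siNONO, but also without overlap.

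Read along the heavy strand, whose textbook gene order was used because the files give no positions, the changes were not spread evenly. The rRNAs at the start were higher, the next 3 mRNAs (ND1, ND2 and COX1) had log2 fold changes from -0.28 to -0.12, and the 9 after COX1 had -0.51 to -0.29. The latter ranged from ATP8 (-0.29) to ND4 (-0.51), and CYTB, the last gene, had -0.47. The log2 ratio of ND1, ND2 and COX1 counts to those of the 9 later genes was -0.58 to -0.59 in siCtrl and -0.31 to -0.32 in siNONO, with 3 libraries each. This division was made after the values were seen and no test is given. Each of the first 3 lay above each of the later 9 in 16 of 19 fits. The exceptions were all among the 6 fits that left out 1 library. Fits that left out none reused the same 6 libraries, so they are not separate checks. Without siCtrl replicate 2 the lowest of the first 3 was -0.29 and the highest of the later 9 was -0.28. Without siCtrl replicate 3 they were -0.28 and -0.26, and without siNONO replicate 2 both were -0.32.

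**Figure D4:**
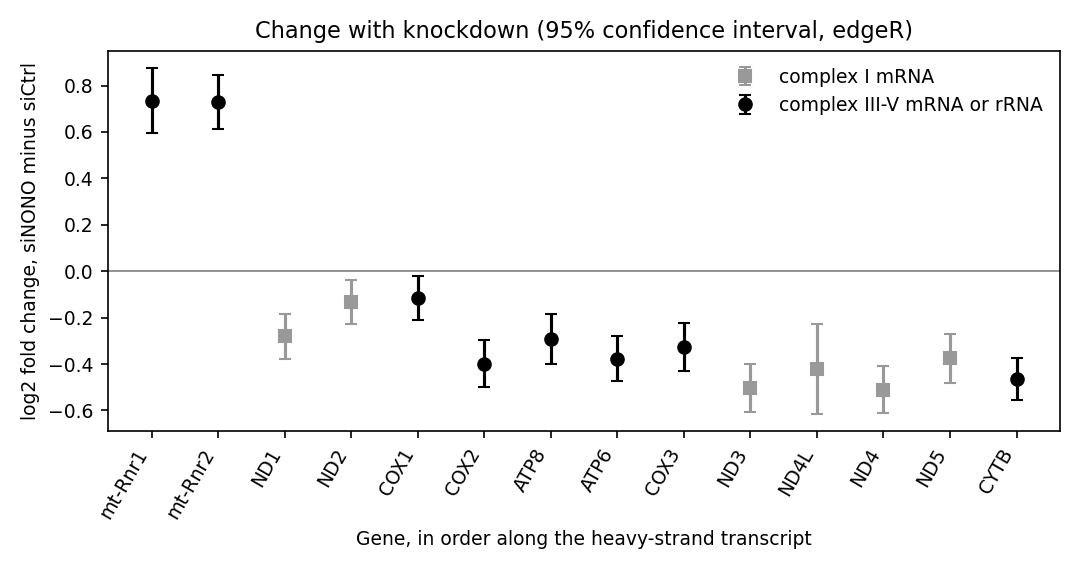
Log2 fold change (siNONO minus siCtrl) with its 95% confidence interval from edgeR. Shown are the rRNAs and the 12 heavy-strand protein-coding genes, in their order along the strand. Both rRNAs lie at 0.73, the mRNAs up to COX1 between -0.28 and -0.12, and the later mRNAs between -0.51 and -0.29.

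Nuclear genes for the other subunits of the same complexes were in part lowered, with list medians nearer to 0 than the -0.35 of the 6 mRNAs. The shares lowered were 22.2% for complex III, 30.8% for complex IV and 41.2% for complex V, beside 15.9% of all genes tested, and these shares were not tested against each other. Of 9 tested complex III subunits 2 were lowered and 0 raised (median log2 fold change -0.08; at an unadjusted p under 0.05 also 0 raised, as with DESeq2 and limma-voom). Uqcr10 (-0.26 ± 0.06, edgeR adjusted p = 0.00388) and Uqcrq (-0.21) were the members lowered. Of 13 complex IV subunits 4 were lowered and 0 raised (median -0.09; 0 raised also at an unadjusted p under 0.05 and with DESeq2 and limma-voom), with the largest falls for Cox6a2, the muscle-type subunit, from 2.04 to 0.577 CPM (-1.81 ± 0.25, edgeR adjusted p = 7.79e-05), and Cox8a (-0.30 ± 0.05). Of 17 complex V subunits 7 were lowered and 1 raised (median -0.12). Atp5mc2, a gene for the proton-carrying c-ring, went from 284 to 315 CPM in siCtrl to 225 to 243 CPM in siNONO (-0.35 ± 0.05, edgeR adjusted p = 1.19e-04), and Atp5f1e had -0.28 ± 0.07. The raised gene was Atp5pb of the peripheral stalk (0.21 ± 0.04). Without siNONO replicate 1 or 3 the lowered counts were 1, 2 and 3 for complexes III, IV and V, and without siCtrl replicate 2 complex III had 4. With log2(FPKM + 1) they were 0, 2 and 2.

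Assembly factors of these complexes, which build in cofactors and join subunits, were raised in 5 of 29 and lowered in 2 (median 0.03). These are shares of 17.2% and 6.9%, beside 16.2% and 15.9% of all genes, so the raised share lies near that of all genes. With scaling by library totals the counts were 9 raised and 1 lowered, and with upper-quartile factors 3 and 3. Uqcc3, a complex III factor, rose most at 0.41 ± 0.06 (edgeR adjusted p = 1.92e-04), and Coa7 had 0.33 ± 0.09, a call lost without siNONO replicate 1. Pet100, a complex IV factor, fell by 0.25 ± 0.06, and Uqcc2 (-0.19 ± 0.07) was lost without siCtrl replicate 1, siNONO replicate 1 or siNONO replicate 3. Over the fits without 1 library the raised count ran from 2 (without siNONO replicate 1) to 6 and the lowered count from 1 to 4 (without siCtrl replicate 2 or 3).

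The nuclear genes that copy mitochondrial DNA into RNA showed no called change. Of 10 tested transcription genes edgeR called 0, where 32.1% of all genes tested were called in either direction. DESeq2 and limma-voom also called 0, while at an unadjusted p under 0.05, 1 was higher and 1 lower. The RNA polymerase gene Polrmt had means of 9.05 ± 0.521 CPM in siCtrl and 8.80 ± 1.10 CPM in siNONO (log2 fold change -0.05 ± 0.10). The packaging and promoter factor gene Tfam had -0.05 ± 0.05 (95% confidence interval -0.16 to 0.06), the initiation factor gene Tfb2m -0.05 ± 0.06 and the elongation factor gene Tefm 0.25 ± 0.11 (edgeR adjusted p = 0.102). Tefm was called raised without siCtrl replicate 1 (adjusted p = 0.0354), with total library size (0.0470) and with limma on FPKM of at least 1 in 3 libraries (0.0233), and Mrpl12 (-0.14 ± 0.06), the member of lowest p beside it, was called lowered without siCtrl replicate 2 (0.0315).

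Genes for processing, tailing and turnover of mitochondrial RNA were raised in 4 and lowered in 3 of 21, with a median of 0.05. Those shares, 19% and 14.3%, lie near the 16.2% and 15.9% of all genes, so the counts show nothing particular to the list. With limma on log2(FPKM + 1) they were 3 and 1. Lrpprc and Slirp encode the complex that keeps mitochondrial mRNAs stable and tailed, and neither passed: Lrpprc had means of 58.9 ± 1.98 CPM in siCtrl and 61.7 ± 2.58 CPM in siNONO (0.07 ± 0.05), and Slirp had -0.13 ± 0.06 (edgeR adjusted p = 0.110). Mtpap, the poly(A) polymerase gene, had 0.05 ± 0.07. Pnpt1, which encodes the polynucleotide phosphorylase of the mitochondrial RNA degradosome, rose from 36.8 to 42.9 CPM in siCtrl to 46.4 to 49.0 CPM in siNONO (0.23 ± 0.06, edgeR adjusted p = 0.00725). Its helicase partner Supv3l1 rose by 0.19 ± 0.05 (edgeR adjusted p = 0.0193). That call was lost without siCtrl replicate 3 (0.0586), siNONO replicate 1 (0.0865) or siNONO replicate 3 (0.0716), and with DESeq2 (0.0651). Fastkd2, a factor for the large-subunit rRNA, had 0.23 ± 0.08 and kept its call without siCtrl replicate 2 but lost it when any other library was left out. Rexo2, which degrades short RNA fragments, fell by 0.23 ± 0.05 (edgeR adjusted p = 0.00165), and Hsd17b10, a subunit of the enzyme that cuts tRNA 5′ ends, had -0.22 ± 0.07. Hsd17b10 lost its call without siCtrl replicate 1, siNONO replicate 1 or siNONO replicate 3. The raised count was 2 without siCtrl replicate 3, siNONO replicate 1 or siNONO replicate 3 and with DESeq2, and the lowered count 1 without siCtrl replicate 1, siNONO replicate 1 or siNONO replicate 3.

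Of 18 genes for rRNA modification and mitochondrial ribosome assembly, edgeR called 0, where 32.1% of all genes tested were called in either direction. DESeq2 and limma-voom also called 0, and at an unadjusted p under 0.05, 1 was higher and 0 lower. Mettl17 was nearest at 0.23 ± 0.09 (edgeR adjusted p = 0.0594), and it was called with no filter (0.0327), with total library size (0.0215) and with limma on FPKM of at least 1 in 3 libraries (0.0193). Translation factors were raised in 4 of 12 and lowered in 1 (33.3% and 8.33%, beside 16.2% and 15.9% of all genes; median 0.03), with Mtrf1 (0.27 ± 0.08) and Mtif2 (0.27 ± 0.09) raised and Gfm1 (-0.20 ± 0.05) lowered. Both Mtrf1 and Mtif2 lost their calls without siCtrl replicate 3, which left 2 raised. Mtrf1 was also lost without siNONO replicate 1, and Mtif2 without siCtrl replicate 1, siNONO replicate 2 or siNONO replicate 3. In the list for mitochondrial DNA maintenance, 2 of 12 were raised and 1 lowered (16.7% and 8.33%, where all genes had 16.2% and 15.9%; median -0.02). The ribonucleotide reductase subunit gene Rrm2b (0.78 ± 0.08, edgeR adjusted p = 4.70e-06) and the mitochondrial topoisomerase gene Top1mt (0.53 ± 0.07) rose, while Polg, the catalytic subunit of the mitochondrial DNA polymerase, fell by 0.32 ± 0.05 (edgeR adjusted p = 4.99e-04). Among 7 regulators of mitochondrial biogenesis (median 0.01) Esrra fell by 0.30 ± 0.05 and 0 were raised. The lowered share of 14.3% lies near the 15.9% of all genes, of which 16.2% were raised. DESeq2 and limma-voom also raised 0, but 1 was higher at an unadjusted p under 0.05. Without siCtrl replicate 1, edgeR called 1 raised. Among 16 content markers of the organelle 1 was raised and 3 were lowered (6.25% and 18.8%, where all genes had 16.2% and 15.9%; median -0.03). That balance turned with the setting, to 2 raised and 1 lowered with scaling by library totals, 3 and 1 with limma on log2(FPKM + 1), and 0 and 1 with a replicate block. Citrate synthase (Cs) had 162 to 167 CPM in siCtrl and 145 to 149 CPM in siNONO, or -0.17 ± 0.04 on the log2 scale (edgeR adjusted p = 0.00473). Hspd1 (0.13 ± 0.04), raised, and Cycs (-0.14 ± 0.05), lowered, each lost their calls in several fits without 1 library. Here 1 content marker was lowered without siNONO replicate 1 or 2, and the raised count was 0 without siCtrl replicate 3, siNONO replicate 1 or siNONO replicate 3.

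**Figure D5:**
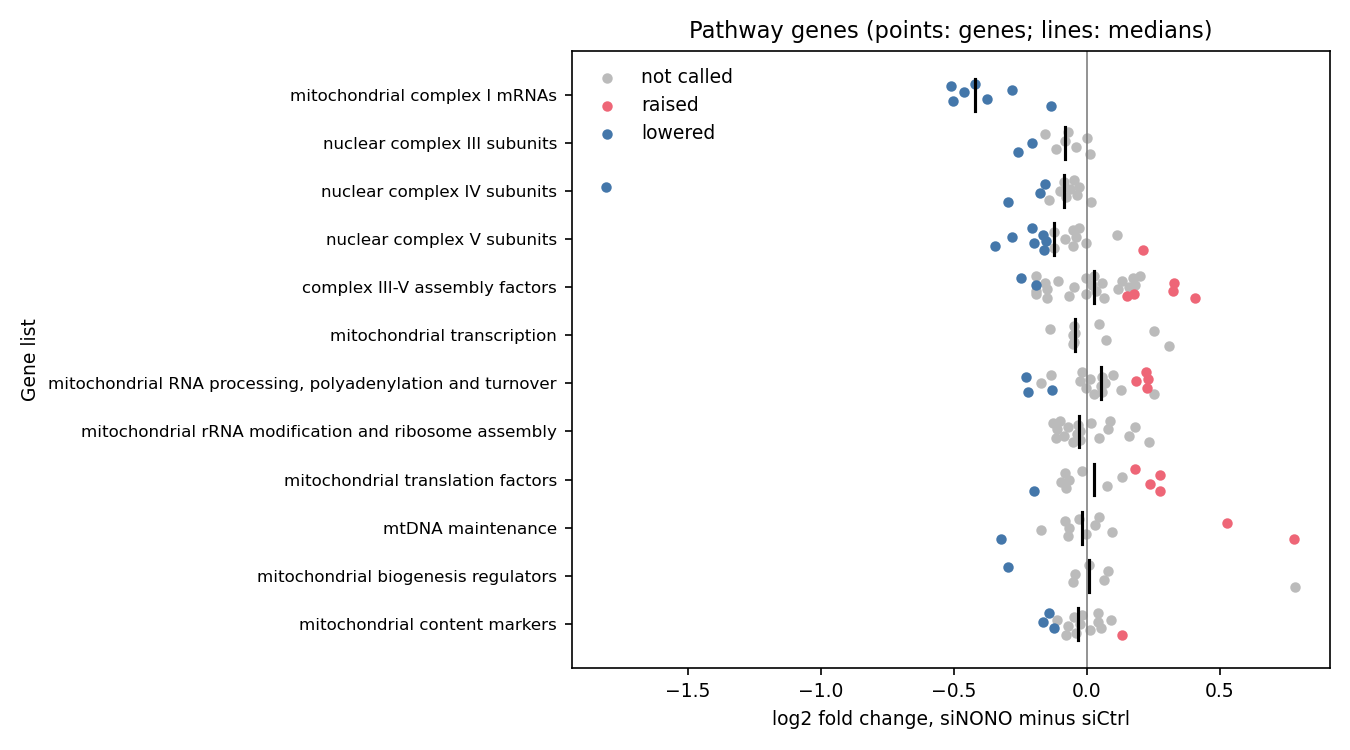
Log2 fold change (siNONO minus siCtrl) of single genes (points, coloured by edgeR call) with list medians (lines). The complex I mitochondrial mRNAs have a median of -0.42, and the lists of nuclear genes for mitochondrial functions have medians between -0.12 and 0.05.

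The nuclear genes whose CPM pattern over the 6 libraries was most like that of the mean of the 6 mRNAs were Gypc, Slc6a9, B4gat1, Ucp2 and Rcn1, of 10173 compared. Their centred log2 CPM differed from it by a root-mean-square of 0.0184 to 0.0235. Ucp2 encodes an uncoupling protein of the inner mitochondrial membrane and went from 71.2 to 73.2 CPM in siCtrl to 57.2 to 60.2 CPM in siNONO. For the rRNAs they were Arpc3, Sh3bgrl2, Slc25a39, Hlcs and Pla1a, at 0.0496 to 0.0678. Slc25a39, a carrier of the inner mitochondrial membrane, went from 82.7 to 98.6 CPM in siCtrl to 142 to 153 CPM in siNONO. All these genes were picked for their likeness in the same libraries, so the likeness is no separate result.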

How the data were processed

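Total RNA was DNase-treated, poly(A)-selected and made into libraries with a stranded mRNA kit, per the labels' protocols. HISAT2, edgeR and genome build mRatBN7.2 are named in the submitters' processing notes, while versions, counting tool and strand setting were not given in the sources used here. Without a stated strand setting, reads of the heavy and light strand transcripts, and of near-identical nuclear copies of mitochondrial DNA, are uncertain. The deposited count table holds raw counts per gene (21378 genes), and the deposited FPKM table (21081 genes) was scaled by the authors to gene length and library. No coordinates or sequences are printed, as none were used here. Of the columns, 0 belonged to other samples.

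Libraries were grouped by title. Counts were filtered with filterByExpr and TMM-scaled, and siNONO was compared with siCtrl by edgeR 4.0.16's quasi-likelihood test (R 4.3.3, limma 3.58.1, DESeq2 1.42.0), two-sided, with Benjamini-Hochberg adjustment over 14412 genes at 0.05. The SE is the log2 fold change over the square root of F. Shares and within-library ratios were compared by exact two-sided permutation. A count of 0 allows up to 3 counts, 0.0899 to 0.108 CPM by library totals without TMM factors, for counting error only. The script was tested on simulated data. Libraries of a group differed beyond sampling noise (chi-square per degree of freedom 3.33 to 8.05).

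The genes and lists were chosen with earlier results of these data known. Lists covered nuclear subunits and assembly factors of complexes III to V, mitochondrial transcription, RNA processing, rRNA modification, translation, DNA maintenance, biogenesis and content, and cell type markers; 7 list genes were not matched. Named were the mitochondrial mRNAs and rRNAs, 9 genes that make, tail or degrade their RNA, up to 2 largest rises and falls per list (or the lowest p where none passed), and the 5 genes of at least 5 CPM with the nearest pattern. Alternatives were other scalings (1 without the mitochondrial genome), filters and tests, FPKM with limma, a replicate block and each library left out. Figures were drawn with matplotlib 3.10.9.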

Additional observations from a re-analysis of the deposited data

How the results depend on the processing

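Over the 18 alternatives, CYTB, COX2, ATP6 and both rRNAs kept their direction and call (log2 fold change of CYTB -0.48 to -0.41, of mt-Rnr1 0.67 to 0.82), and the 6 mRNAs never changed sign. With limma on log2(FPKM + 1) or log2(FPKM + 0.1), 3 of the 6 mRNAs were lowered in place of 5, and the lowered genes in all were 1264 and 1247 in place of 2292 (1424 with at least 1 FPKM in 3 libraries). The cause was not tested. The 6 mRNAs had a difference in share of -1.155 percentage points and the rRNAs one of 0.1205 when shares were taken of summed FPKM, against -0.644 and 0.0793 of counts. Without 1 library, 5 to 6 mRNAs and 2 rRNAs were called, 1675 to 2243 genes were raised and 1694 to 2143 lowered, the log2 ratio of rRNAs to mRNAs rose by 0.95 to 1.07, that of COX1 to complex I mRNAs by 0.20 to 0.24, and that of COX3 changed sign (-0.03 to 0.06).

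Same-numbered libraries did not deviate together (correlation of deviations across genes -0.0472, -0.0861 and -0.00683 for replicates 1, 2 and 3). With 3 libraries per group, these values cannot tell whether libraries of the same number were cultured or transfected together. A replicate block gave 1894 raised and 1863 lowered genes, 5 lowered mRNAs, 2 raised rRNAs, and COX1 at -0.12 (edgeR adjusted p = 0.189). The exact paired permutation test of a ratio cannot go below p = 0.25. Low counts limit the mitochondrial transfer RNA genes in these poly(A)-selected libraries, as 15 of 22 had a mean under 10 counts. The cause of the low counts was not tested.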

Other observations

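The mitochondrial transfer RNA genes were counted little, as 22 genes together took 0.00165% ± 3.99e-05 of the siCtrl counts and 0.00135% ± 3.11e-05 of the siNONO counts (SD, 3 libraries each, exact permutation p = 0.1). Of these, 15 had a mean below 10 counts and 7 passed the filter. Of those 7, edgeR called 1, which was lowered, where it called 32.1% of all genes tested in either direction and 15.9% lowered. That gene was Trnm, the methionine transfer RNA gene, singled out after its values were seen. It had 103, 130 and 139 counts across siCtrl replicates 1 to 3 and 87, 110 and 104 counts across siNONO replicates 1 to 3, or -0.46 ± 0.13 on the log2 scale (edgeR adjusted p = 0.0147). The call was lost without siCtrl replicate 2 (edgeR adjusted p = 0.0559) or siNONO replicate 1 (0.0613). ND6, the mRNA of the light strand, spread more than the others in siNONO, with 7377, 5009 and 7466 counts in replicates 1, 2 and 3.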
